A study of Mus musculus with 15 samples.

Results

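Neb, Atp2a1, Ttn, Acta1, Acta2, Tagln, Cnn1, Des and Myl9 are 9 genes whose products build or drive the contractile apparatus of muscle, and here they were followed in a tumour line of pigment cells. They were picked by symbol from the 46078 genes of the count table, with the DZNep result for Neb and Atp2a1 already in view. Their values under DZNep, against DMSO or against GSK126, are therefore given as a description with no test. Of the 9 genes, 4 passed the low-count filter of edgeR (Neb, Atp2a1, Ttn and Des), among 15152 genes that did, and these 4 also passed it when the DZNep libraries were left out.

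RNA was sequenced from B16-F10, an established mouse melanoma line, in 15 libraries that form 5 groups of 3. All carry B16-F10 as their cell line, but the DZNep libraries are titled in a shorter form and have another source name (melanoma), and their group comes from the treatment label. GSK126 replicate 1 carries a library number that lies apart from those of the other compound libraries. Cells of the compound arm received the solvent DMSO alone, 2 µM of GSK126 or the same dose of DZNep, and cells of the siRNA arm received a scrambled control (scr) or siEzh2, the knockdown of Ezh2. GSK126 blocks the catalytic site of EZH2, the Polycomb enzyme that methylates lysine 27 of histone H3. DZNep (3-deazaneplanocin A) inhibits S-adenosylhomocysteine hydrolase and so acts on many methyltransferases. How long the cells were treated, and whether the 3 libraries of a group came from separate cultures, is not given in the sources used here. A p-value therefore speaks to the spread among these libraries alone, and that spread may be technical.

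In striated muscle, myosin thick filaments pull on actin thin filaments inside the sarcomere, calcium released from the sarcoplasmic reticulum starts the pull, and a calcium pump ends it. Smooth muscle contracts with its own actin and regulators and has no sarcomeres. Transcription of many muscle genes is driven by MYOD-family factors, which bind E-boxes, and by serum response factor (SRF) with its partners myocardin and MRTF, which bind the CArG box.

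The libraries held between 33299524 and 64545747 counts, and levels are given as CPM (counts per 1000000 counts of the library), on library sizes scaled by the trimmed mean of M-values (TMM). Ezh2 stood at 207 ± 2.66 CPM in DMSO, 219 ± 6.60 in scr and 39.6 ± 1.87 in siEzh2 (mean ± SD, n = 3), so the knockdown label held, and at 155 ± 5.06 in DZNep. All 10 markers of the melanocyte lineage passed the filter, and together they reached 22301 to 22670 CPM in the DZNep libraries and 25489 to 25821 in the DMSO libraries. Of 14 skeletal muscle cell markers, the MYOD-family factors Myod1, Myog and Myf5 and the myosins Myh2 and Myh4 had 0 counts in all 15 libraries.

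Neb encodes nebulin, a giant ruler protein that runs along the thin filament of skeletal muscle (ENSMUSG00000026950, GRCm38 chromosome 2, 52136647 to 52378474, minus strand). Its counts were 34, 42 and 51 in the DMSO libraries and 888, 1287 and 1403 in the DZNep libraries, which is 0.859 ± 0.104 against 29.5 ± 2.94 CPM. Every DZNep library lay far above every other library of the study. The fitted log2 difference was 5.12 ± 0.15 (SE), or 34.7-fold, and it ranked 16 from the top among the 15152 genes tested. Against GSK126 the log2 difference of DZNep was 4.65.

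The other groups held Neb at a low level that was not the same throughout. Counts were 59, 39 and 45 with GSK126, 50, 30 and 25 with scr, and 48, 52 and 69 with siEzh2. In CPM, the siEzh2 libraries (1.47, 1.32 and 1.58) all lay above the scr libraries (0.96, 0.64 and 0.64). Neb rose with the knockdown by 0.94 ± 0.21 on the log2 scale, or 1.92-fold (edgeR quasi-likelihood test, Benjamini-Hochberg adjusted p = 0.0023). Set against DMSO, a comparison added after the values were seen, siEzh2 was higher by 0.77 ± 0.20 (adjusted p = 0.015). GSK126 differed from DMSO by 0.47 ± 0.21, which did not pass (edgeR, adjusted p = 0.15), and GSK126 replicate 2, at 0.90 CPM, lay within the DMSO range. GSK126 replicate 1 was the highest of its group at 1.58 CPM. The difference was 0.22 without replicate 1 of GSK126 (edgeR, adjusted p = 0.59) and 0.64 without replicate 2 (adjusted p = 0.078). The siEzh2 and GSK126 effects on Neb differed by 0.47 ± 0.30, which did not pass either (edgeR, adjusted p = 0.30).

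Atp2a1 encodes SERCA1, the pump that returns calcium to the sarcoplasmic reticulum in fast-twitch fibres (ENSMUSG00000030730, chromosome 7, 126445858 to 126463108, minus strand). Its counts were 16, 10 and 14 with DMSO and 250, 403 and 316 with DZNep, which is 0.277 ± 0.0918 against 8.04 ± 1.36 CPM. As for Neb, the DZNep libraries stood apart from all 12 others. The log2 difference was 4.89 ± 0.22, or 29.7-fold, at rank 18 of the 15152 genes, and against GSK126 it was 5.17.

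Outside DZNep, Atp2a1 counts stayed between 7 and 23 in every library. They were 7, 7 and 13 with GSK126, 21, 12 and 11 with scr, and 14, 11 and 23 with siEzh2. None of the test comparisons called it. GSK126 differed from DMSO by -0.27 ± 0.39 (adjusted p = 0.71), siEzh2 from scr by 0.37 ± 0.34 (adjusted p = 0.46), and the difference between these effects was 0.65 ± 0.52 (edgeR, adjusted p = 0.43). With so few counts, the standard errors leave room for changes of modest size. Atp2a1 shares 763 exon bases, 21.9% of its exon length, with Rabep2 on the opposite strand, and Rabep2 also rose with DZNep, from 9.41 to 20.7 CPM (log2 1.14, edgeR adjusted p = 3.2e-10). Whether counting used strand is not given in the sources used here, and the part of the shared stretch in the Atp2a1 values was not tested.

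**Figure D1:**
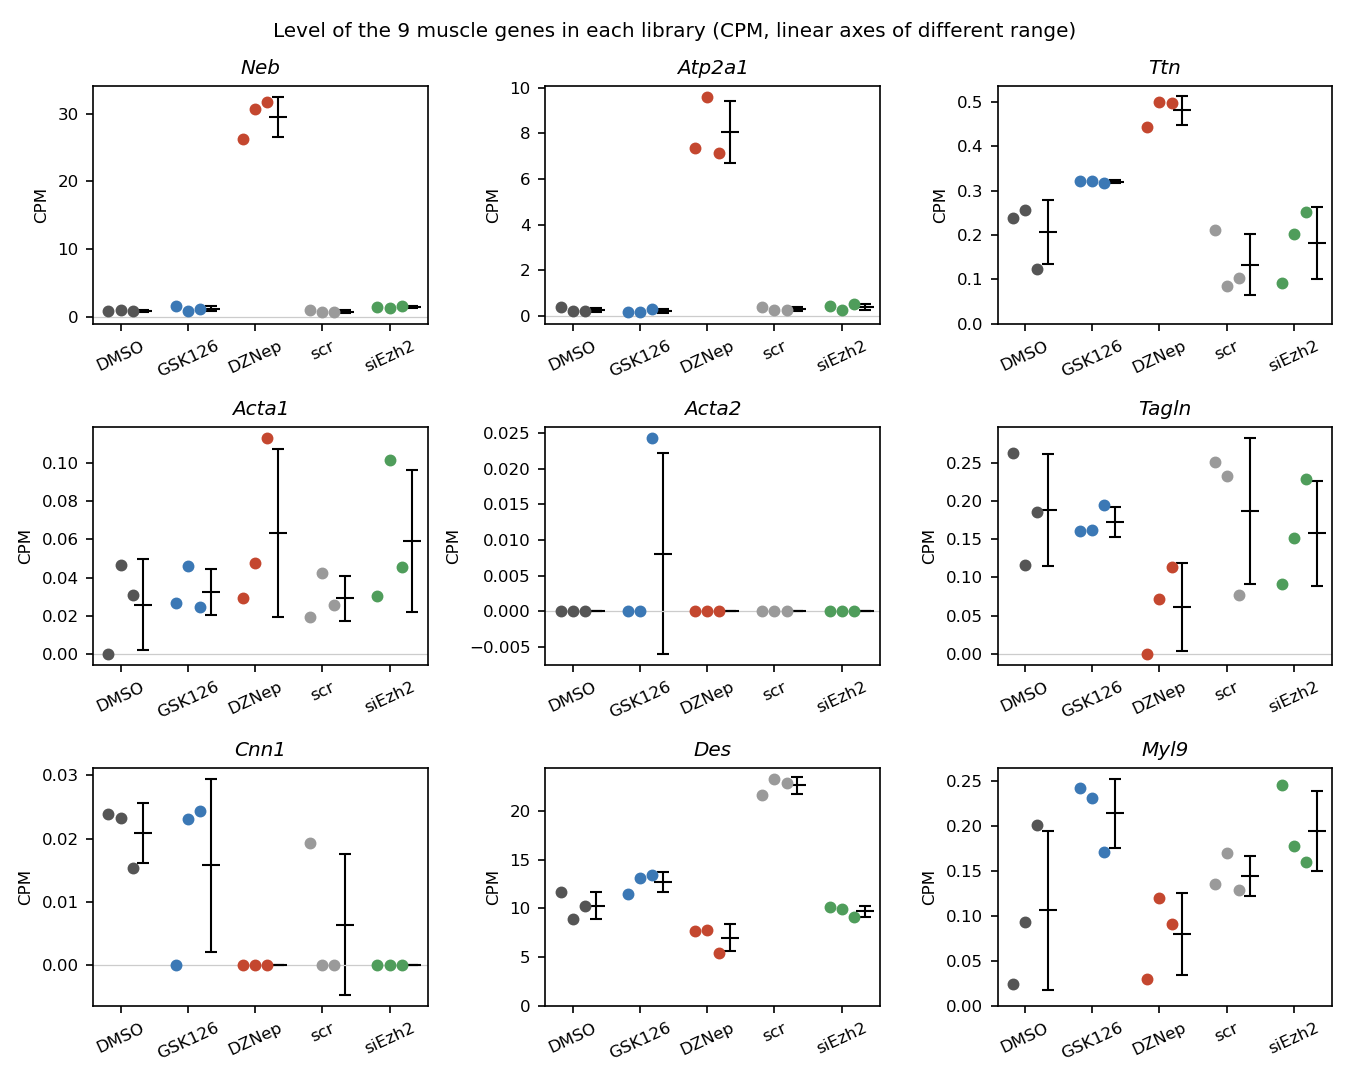
CPM of each of the 9 genes (vertical axes, linear, each with its own range) in each of the 15 libraries (points, by group along the horizontal axis), with the mean and SD of each group of 3 as a bar. Neb and Atp2a1 are high in DZNep alone (29.5 and 8.04 CPM), Des is highest in scr (22.6 CPM), and Acta1, Acta2, Tagln, Cnn1 and Myl9 stay below 0.3 CPM in all groups.

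Titin, encoded by Ttn (ENSMUSG00000051747, chromosome 2, 76703980 to 76982547, minus strand), spans from Z disc to M band as the spring of the sarcomere. The DMSO libraries held 10, 11 and 8 of its counts, those of GSK126 held 12, 14 and 13, and those of DZNep held 15, 21 and 22. The siRNA arm had 11, 4 and 4 counts with scr and 3, 8 and 11 with siEzh2. The DZNep libraries were again the highest, but the difference of 1.29 ± 0.34 on the log2 scale rested on 29 against 58 counts, and it ranked 495. These few counts lie along 116825 exon bases, so that Ttn reached 0.0041 RPKM with DZNep (CPM per kilobase of merged exons), against 1.11 for Neb. No test comparison called Ttn. GSK126 differed from DMSO by 0.70 ± 0.37 (edgeR, adjusted p = 0.23), and siEzh2 from scr by 0.45 ± 0.45 (adjusted p = 0.51).

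Acta1, the skeletal muscle actin of the thin filament (ENSMUSG00000031972, chromosome 8, 123891769 to 123894751, minus strand), was close to undetected. Its counts were 0, 2 and 2 with DMSO, 1, 2 and 1 with GSK126, 1, 2 and 5 with DZNep, 1, 2 and 1 with scr, and 1, 4 and 2 with siEzh2. The 27 counts over all libraries fell short of the filter, and the 95% Poisson intervals of the pooled DMSO level (0.00728 to 0.0684 CPM) and DZNep level (0.0288 to 0.131 CPM) overlapped. These intervals cover counting error only. With 4 counts in DMSO and 8 in DZNep, these data are too sparse to tell whether this actin, which nebulin lines in skeletal muscle, changed.

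The smooth muscle genes did not reach the filter either. Acta2, the smooth muscle actin (ENSMUSG00000035783, chromosome 19, 34241090 to 34255590, minus strand), had 1 count in the 15 libraries together, in GSK126 replicate 3. A count of 0 over the DZNep group allows up to 0.025 CPM (3 counts over the group). Cnn1, which encodes calponin 1, an actin-binding regulator of smooth muscle contraction (ENSMUSG00000001349, chromosome 9, 22099216 to 22109630, plus strand), had 6 counts in all, of which 3 were in DMSO and 0 in DZNep. Tagln, the actin-binding protein transgelin or SM22 (ENSMUSG00000032085, chromosome 9, 45929619 to 45936058, minus strand), had 11, 5 and 12 counts with DMSO and 0, 3 and 5 with DZNep. Its other groups held 6, 7 and 8 (GSK126), 13, 11 and 3 (scr) and 3, 6 and 10 (siEzh2). In CPM, the DZNep libraries reached 0.113 at most and the DMSO libraries 0.116 at least. Each of these bounds rests on 5 counts in 1 library, so nothing is read from the gap. Of Tagln's exon length, 62.4% is shared with Gm48529, an antisense transcript. Myl9, a regulatory light chain of smooth muscle myosin (ENSMUSG00000067818, chromosome 2, 156775420 to 156781658, plus strand), had 1, 4 and 13 counts with DMSO and 1, 5 and 4 with DZNep. It had 9, 10 and 7 with GSK126, 7, 8 and 5 with scr, and 8, 7 and 7 with siEzh2. Without the low-count filter, none of these 5 genes was called by edgeR in GSK126 with DMSO, siEzh2 with scr or scr with DMSO (adjusted p of at least 0.43).

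Desmin, the muscle intermediate filament that ties Z discs together (Des, ENSMUSG00000026208, chromosome 1, 75360329 to 75368579, plus strand), was the member that these cells expressed in every group. Counts were 487, 382 and 663 with DMSO and 261, 328 and 239 with DZNep, which is 10.3 ± 1.37 against 6.98 ± 1.36 CPM. Des thus went the other way from Neb and Atp2a1 under DZNep: all 3 DZNep libraries (7.70, 7.82 and 5.41 CPM) lay below all 3 DMSO libraries (11.6, 8.90 and 10.2 CPM), with a log2 difference of -0.56 ± 0.12.

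The controls themselves differed in Des. The scr libraries held 21.6, 23.3 and 22.9 CPM, above every DMSO library, and scr exceeded DMSO by 1.14 ± 0.11 on the log2 scale, or 2.21-fold (edgeR, adjusted p = 2.6e-07). The siEzh2 libraries held 10.1, 9.88 and 9.07 CPM. Des therefore fell by 1.23 on the log2 scale (SE 0.11) between scr and siEzh2 (edgeR, adjusted p = 1.1e-07), while siEzh2 and DMSO differed by -0.08 ± 0.11 (adjusted p = 0.68). GSK126 gave 11.5, 13.1 and 13.4 CPM, 0.31 ± 0.11 above DMSO, which did not pass (edgeR, adjusted p = 0.076) but did without DMSO replicate 1 (0.40 ± 0.12, adjusted p = 0.024) and without the low-count filter (0.30 ± 0.09, adjusted p = 0.010). The siEzh2 effect minus the GSK126 effect was -1.54 ± 0.16 (edgeR, adjusted p = 8.5e-07), and the scr level enters this value.

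**Figure D2:**
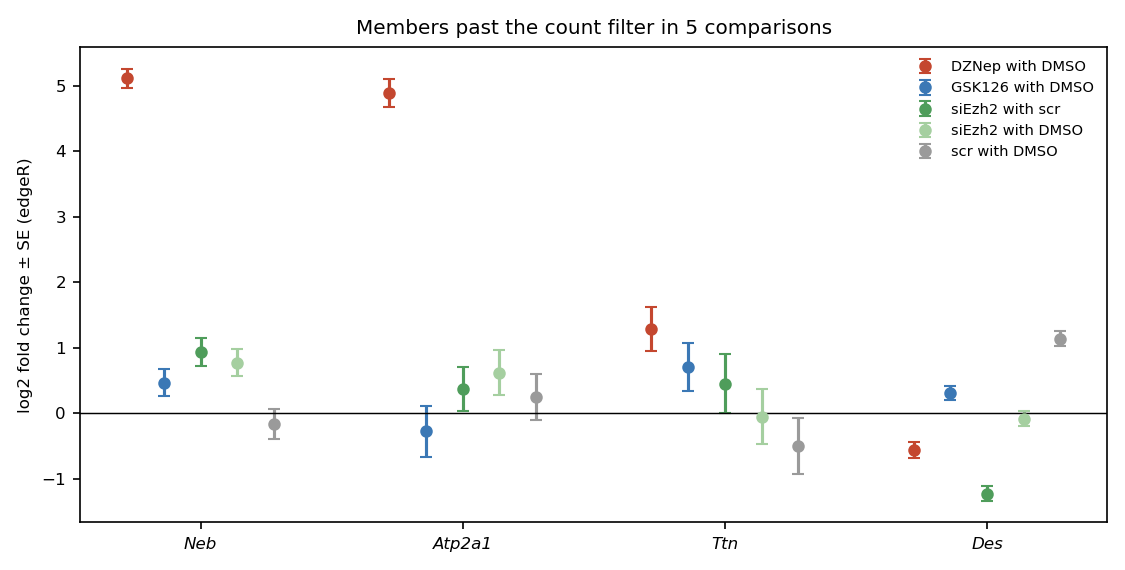
Log2 fold change ± SE (vertical axis, from the edgeR fit of 15 libraries) of the 4 members past the low-count filter, with 1 colour per comparison. Under DZNep, Neb (5.12) and Atp2a1 (4.89) stand far above Ttn (1.29) and Des (-0.56), and Des moves by about as much between the controls (1.14) as between siEzh2 and scr (-1.23), with the opposite sign.

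Read against all genes, the calls were few or common. GSK126 with DMSO called 0 of the 4 tested members by edgeR, where 12.7% of all genes were called, with 2 members at an unadjusted p under 0.05 (Neb and Des) and 0 called by DESeq2, which set no adjusted p for 1 of the 4. siEzh2 with scr called 2 (Neb higher, Des lower) beside 26.1% of all genes, and scr with DMSO called 1 (Des) beside 25.9%. The difference between the siEzh2 and GSK126 effects called 1 (Des) beside 20.7%. With siEzh2 against DMSO, 1 (Neb) was called beside 14.2%. The contrasts with DZNep chose the members, so their counts are listed beside the background and nothing is read from them. In DZNep with DMSO, 4 of the 4 members (3 higher, 1 lower) and 62.3% of all genes passed the same threshold, and in DZNep with GSK126, 3 members and 64.6% of all genes did.

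Per length of merged exons, the order of the members changed with DZNep. In DMSO, Des led at 2.73 ± 0.366 RPKM, and Tagln (0.0946 ± 0.0369), Myl9 (0.0910 ± 0.0764) and Atp2a1 (0.0797 ± 0.0264) followed without differing beyond their spread. Neb came next at 0.0323 ± 0.0039 RPKM, then Acta1 at 0.0168 ± 0.0154 and Cnn1 at 0.0076 ± 0.0017, which did not differ beyond the spread of Acta1. Ttn was at 0.0018 ± 0.0006 RPKM and Acta2 at 0. In DZNep, Atp2a1 led at 2.31 ± 0.390 RPKM, within the spread of Des at 1.86 ± 0.362, and Neb stood at 1.11 ± 0.111. Myl9 (0.0686 ± 0.0394), Acta1 (0.0413 ± 0.0286) and Tagln (0.0310 ± 0.0288) overlapped, Ttn was at 0.0041 ± 0.0003, and Cnn1 and Acta2 were at 0.

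Promoters bear on members that share known regulators, so the 250 bases before the RefSeq start (table of GRCm38.p6) were searched on both strands. The motifs were the E-box CAGCTG and the CArG box in its strict form, CCWWWWWWGG with W for A or T. They overlap in no member. The table held 7 of the 9 members. Shown are Atp2a1, which was high with DZNep, Des, which was lower, and Acta1 and Myl9, the members with a strict CArG box and hardly any counts. Each runs 5′ to 3′ on the gene's strand, with the matched motif in capitals.
Atp2a1 (chr7:126463074-126463323, minus): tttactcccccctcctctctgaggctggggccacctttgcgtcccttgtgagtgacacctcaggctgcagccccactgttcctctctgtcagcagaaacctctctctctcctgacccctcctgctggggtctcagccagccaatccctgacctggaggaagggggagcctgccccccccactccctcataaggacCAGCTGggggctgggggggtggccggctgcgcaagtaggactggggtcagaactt
Des (chr1:75360042-75360291, plus): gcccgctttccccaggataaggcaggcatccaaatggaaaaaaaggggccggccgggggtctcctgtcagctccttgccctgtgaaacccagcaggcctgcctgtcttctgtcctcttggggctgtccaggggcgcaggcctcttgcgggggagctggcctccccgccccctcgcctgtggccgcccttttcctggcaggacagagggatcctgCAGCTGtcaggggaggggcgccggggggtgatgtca
Acta1 (chr8:123894776-123895025, minus): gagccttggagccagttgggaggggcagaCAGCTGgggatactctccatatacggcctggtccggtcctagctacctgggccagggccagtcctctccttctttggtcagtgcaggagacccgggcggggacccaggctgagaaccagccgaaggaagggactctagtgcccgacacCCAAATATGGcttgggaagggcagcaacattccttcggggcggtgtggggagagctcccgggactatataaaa
Myl9 (chr2:156775214-156775463, plus): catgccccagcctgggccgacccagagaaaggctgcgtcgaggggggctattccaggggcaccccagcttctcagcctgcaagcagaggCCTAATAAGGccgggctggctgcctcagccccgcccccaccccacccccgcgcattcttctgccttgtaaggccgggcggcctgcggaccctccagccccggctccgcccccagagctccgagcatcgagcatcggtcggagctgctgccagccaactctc
A strict CArG box lay 73 to 64 bases before the start of Acta1 (CCAAATATGG) and 161 to 152 bases before that of Myl9 (CCTAATAAGG). Of the 32851 promoters of the table, 1.47% held one. CAGCTG lay 55 to 50 bases before the start of Atp2a1, 36 to 31 before that of Des, 221 to 216 before that of Acta1 and 182 to 177 before that of Acta2, and 13% of promoters held it. The windows of Ttn and Cnn1 held neither motif in these exact forms. Looser CArG forms, with a G or C between CC and GG, were not counted, and the windows of Acta2 and Ttn, among others, hold such forms. These matches describe the letters only.

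Whether other muscle genes followed Neb and Atp2a1 was read from 9 lists of 231 genes, members left out, of which 124 passed the filter. These lists were chosen with earlier results of these data known, so their shares describe the listed genes and are no independent test. A gene that stands in more than 1 list was counted once. With DZNep, 43 of these were higher than with DMSO (34.7%, where 31.2% of all genes were) and 44 were lower (35.5%, where 31% were), by edgeR at an adjusted p under 0.05. Their median log2 difference was 0.01, and that of all genes was 0.00. Changes of at least 2-fold were called upward for 13 (10.5%) and downward for 14 (11.3%), beside 5.07% and 7.97% of all genes. The filter admitted 7 of the 124 only through the DZNep libraries, where such genes had to be high. Of the other 117, 37 were higher (31.6%) and 44 lower (37.6%), and 7 were at least 2-fold higher (5.98%) and 14 at least 2-fold lower (12%). Higher and lower calls were thus about equal in number over the 9 lists together, but not within each list.

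Of the 74 genes in the 3 sarcomere lists, 25 passed the filter, 13 were higher and 4 lower. Without the 4 that passed only through DZNep, all of them higher, 9 of 21 were higher (42.9%) and 4 lower (19%). The shares of all genes, 31.2% and 31%, were taken over all 15152 genes, with those admitted only through DZNep left in. For genes admitted in this way the DZNep values are given with no p. Among thick filament genes, Mylk3, which encodes the cardiac myosin light chain kinase, had 5, 5 and 11 counts with DMSO and 100, 110 and 106 with DZNep, which is 18.6-fold (log2 4.22 ± 0.25). Mybpc2, the fast-type myosin-binding protein C, had 2, 1 and 2 counts and 14, 14 and 18 (log2 3.41 ± 0.58). Both passed the filter only through DZNep. Mylpf, a fast myosin light chain and the third gene tested, passed without it and was not called (log2 0.19 ± 0.13, edgeR adjusted p = 0.21). The remaining 20 thick filament genes did not reach it, myosin heavy chains Myh2, Myh4 and Myh8 among them with 0 counts throughout.

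Thin filament genes were called higher in 5 of 7 cases (71.4%) and lower in 1 (14.3%), beside 31.2% and 31% of all genes. Tnnt2, the cardiac troponin T, rose from 9, 16 and 14 counts to 52, 60 and 36 (log2 2.24 ± 0.33, edgeR adjusted p = 6.9e-06). Nebl, the short relative of nebulin called nebulette, rose from 7.74 ± 0.571 to 11.2 ± 0.370 CPM with DZNep (log2 0.54). It was also higher with GSK126 (log2 0.81, edgeR adjusted p = 8.6e-07) and in scr than in DMSO (log2 1.04, adjusted p = 1.1e-08). Tpm3, a tropomyosin, rose by 0.27, and Tmod1, which caps the slow end of thin filaments, fell by 0.90 on the log2 scale.

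At the Z disc and M band, 6 of 15 tested genes were higher (40%) and 3 lower (20%). Over all genes the shares were 31.2% and 31%. Actn2, the alpha-actinin of the sarcomeric Z disc, had 9, 7 and 6 counts with DMSO and 52, 90 and 82 with DZNep (log2 3.62 ± 0.28). Myom3, a myomesin of the M band, had 1 count in each DMSO library and 43, 46 and 54 with DZNep, a ratio of 59.5 with a 95% interval of 19.9 to 291.7 from counting error. Both passed the filter only through DZNep, which leaves 4 of 13 genes higher (30.8%), and neither was called with GSK126 or siEzh2. Actn3, a further alpha-actinin gene of the list, went the other way from Actn2 and was called lower (log2 -1.51 ± 0.40). Trim63, a muscle ubiquitin ligase also called MuRF1, rose by 0.34, Ankrd23, a titin-binding ankyrin repeat protein, fell by 0.86, and Pdlim5 fell by 0.23 on the log2 scale.

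**Figure D3:**
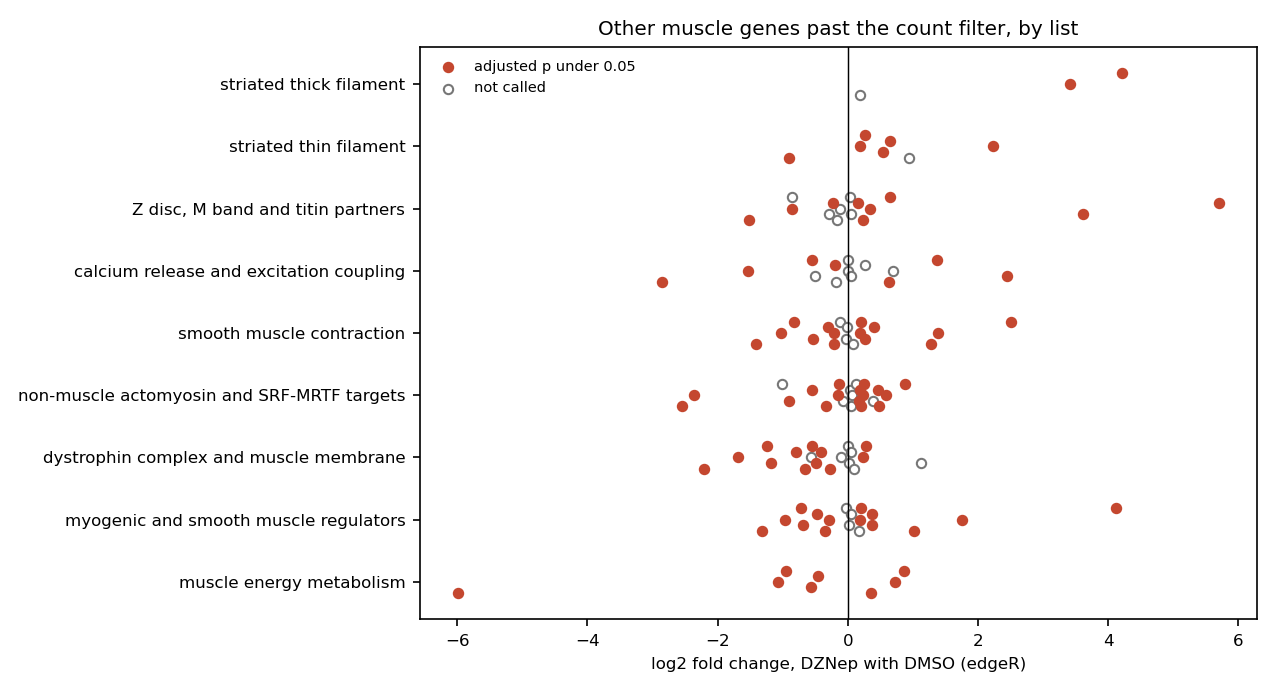
Log2 fold change of DZNep with DMSO (horizontal axis, edgeR) for each listed muscle gene past the filter, 1 point per gene and 1 row per list, filled where the adjusted p was under 0.05 and including the 7 genes that passed only through DZNep. Points spread to both sides of 0 in most lists, with single genes such as Myom3 (5.70), Mylk3 (4.22) and Myocd (4.13) far to the right and Cox6a2 (-5.99) far to the left.

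Around the calcium pump, 14 of 33 listed genes were tested, 3 higher (21.4%) and 4 lower (28.6%), beside 31.2% and 31% of all genes. Casq1, the calsequestrin that binds calcium in the store of fast fibres, rose from 10, 13 and 10 counts to 44, 57 and 45 (log2 2.44 ± 0.26, edgeR adjusted p = 1.1e-07), and Casq2, its cardiac relative, rose by 1.37. Tmem38a, a potassium channel of the reticulum, rose by 0.64, and its relative Tmem38b fell by 0.54. Atp2a3, which encodes SERCA3, the pump of non-muscle cells, went the other way from Atp2a1. It fell from 15, 20 and 31 counts to 2, 3 and 2 (log2 -2.85 ± 0.40, edgeR adjusted p = 4.3e-06), and it differed between the controls by 1.29 (adjusted p = 0.00018).

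The smooth muscle list had 18 of 25 genes tested, 7 higher and 7 lower (38.9% each), beside 31.2% and 31% of all genes. Synpo2, an actin-bundling protein, rose from 34, 31 and 25 counts to 97, 159 and 165 (log2 2.50 ± 0.23, edgeR adjusted p = 1.2e-08). Myh11, the smooth muscle myosin heavy chain, rose from 0.595 ± 0.155 to 1.60 ± 0.165 CPM (log2 1.38), and the integrin Itga8 rose by 1.28. Cnn2, the calponin found outside muscle, fell from 23.4 ± 0.911 to 8.82 ± 0.512 CPM (log2 -1.41). In these same libraries Acta2, Cnn1, Tagln and Myl9 were at or near 0.

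Among non-muscle actomyosin genes and known SRF and MRTF targets, 9 of 23 were higher (39.1%) and 7 lower (30.4%). Of all genes, 31.2% were higher and 31% lower. Vcl (vinculin), Cfl1 (cofilin) and Tuft1 rose by 0.59, 0.49 and 0.87 on the log2 scale. Myh14, a non-muscle myosin, fell from 17.2 ± 1.49 to 3.35 ± 0.197 CPM (log2 -2.35), and Ccn1 fell by 0.91. The dystrophin complex, which links the membrane to the cytoskeleton, had 2 genes higher (10.5%) and 10 lower (52.6%) of 19. Sspn, which encodes sarcospan, a membrane protein of that complex, fell from 127 ± 6.77 to 56.5 ± 5.99 CPM (log2 -1.17). Dag1 rose by 0.24. Dmd (dystrophin) was called higher by 0.28 (edgeR, adjusted p = 0.019), a call lost without DMSO replicate 3 (adjusted p = 0.12), without DZNep replicate 2 (0.060), without DZNep replicate 3 (0.062) or where only the 2 groups were fitted (0.060).

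Of 18 tested regulators, 7 were higher and 7 lower (38.9% each), beside 31.2% and 31% of all genes. Without those that passed only through DZNep, 5 of 16 were higher (31.2%) and 7 lower (43.8%). Myocd, which encodes the SRF partner myocardin, had 3, 4 and 3 counts with DMSO and 53, 52 and 40 with DZNep (log2 4.13 ± 0.35, 17.5-fold), and it passed the filter only through DZNep. With 11, 10 and 18 counts it was also higher with GSK126 (log2 2.21 ± 0.45, edgeR adjusted p = 0.0025). Myocd was named for its difference between DZNep and DMSO. The same DMSO libraries are the control of GSK126, so the GSK126 call is not independent of that choice. With 7, 7 and 10 counts against 2, 4 and 2 in scr, Myocd was higher with siEzh2 (log2 1.78 ± 0.53, edgeR adjusted p = 0.016). The siEzh2 call was lost without scr replicate 1 (adjusted p = 0.073) or siEzh2 replicate 3 (0.054). Mrtfa rose by 0.37 and Id2, an inhibitor of E-box factors, by 0.37, while Nfix fell by 0.97 and Eya4 by 1.32 on the log2 scale. In muscle energy metabolism, 3 of 8 were higher (37.5%) and 5 lower (62.5%). Gys1 (glycogen synthase) rose by 0.73 and Ckb (brain creatine kinase) by 0.35, Pfkm fell by 0.56, and Cox6a2, the muscle form of a cytochrome oxidase subunit, went from 32, 29 and 45 counts to 0, 1 and 0, a ratio of 85.0 with a 95% interval of 14.9 to 3389 from counting error (edgeR, adjusted p = 2.2e-07).

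Fewer of the same 124 genes were called under the treatments that target EZH2, as for genes in general. With GSK126, 26 were higher (21%) and 4 lower (3.23%), beside 7.15% and 5.54% of all genes, with a median log2 difference of 0.12 against -0.01. With siEzh2 against scr, 28 were higher (22.6%) and 19 lower (15.3%), beside 13.2% and 12.9%. Between scr and DMSO, 25 were higher and 25 lower (20.2% each), beside 12.2% and 13.6%. GSK126 and DZNep share the DMSO libraries, so these counts are not independent of each other.

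Markers of other cells were measured beside these genes, since fewer cells of a type and less RNA per cell cannot be told apart in bulk RNA. Skeletal muscle markers summed to 2.25 to 2.40 CPM in DMSO and 2.49 to 2.66 in DZNep, most of it from 1 of the 14, Mylpf (1.96 ± 0.0680 against 2.23 ± 0.0147 CPM). Where 31.2% of all genes were called higher with DZNep and 31% lower, 2 of 9 heart muscle markers were tested and 1, Tnnt2, was higher. They summed to 2.41 to 2.91 CPM in DMSO and 3.03 to 4.57 in DZNep, with Ryr2 and Mybpc3 at 0 in both. Of 10 fibroblast markers, 6 were tested and 5 were higher with DZNep, among them Postn (6.66 ± 0.620 to 45.8 ± 5.44 CPM), Fbln1, Col1a1 and Col1a2. They summed to 190 to 229 CPM in DMSO and 399 to 417 in DZNep, while Thy1 was at 0 in all libraries and Dcn had 2 counts in DZNep. Of 8 pericyte markers, 4 were tested, with 1 higher (Notch3) and 1 lower (Cspg4), and Kcnj8 and Higd1b were at 0. These summed to 32.6 to 38.4 CPM in DMSO and 35.8 to 41.2 in DZNep. Of 10 blood and endothelial markers, 2 were tested and 1 (Cd68) was higher. They summed to 2.75 to 3.23 CPM in DMSO and 3.62 to 4.91 in DZNep, with Cd3e, Cdh5 and the haemoglobins Hbb-bs and Hba-a1 at 0. Below the filter, Kdr went from 0 counts in DMSO to 15 in DZNep, and Csf1r from 0 to 5. In the same list, Pecam1 went the other way, from 24 counts in DMSO to 11 in DZNep, and Lyz2 from 44 to 22. The part of the fibroblast, heart, blood and endothelial markers in the muscle results was not tested.

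Genes on either side of Neb and Atp2a1 were called in both directions, where 31.2% of all genes were called higher and 31% lower. Of 5 tested genes within 200 kb of Neb, 2 were higher with DZNep (Tnfaip6, log2 1.89, and Nmi, 0.58), 2 were lower (Cacnb4, -0.73, and Arl5a, -0.22), and Rif1 differed by 0.09. Of 12 near Atp2a1, 5 were higher and 5 lower. Rabep2 was the highest of them at 1.14, and Apobr the lowest, at -5.11 ± 0.27 (edgeR, adjusted p = 1.6e-11), going from 6.50 ± 1.31 to 0.191 ± 0.100 CPM. Near Des, 10 of 17 were higher and 2 lower, and the muscle kinase gene Speg, next to it, differed by 0.10 (adjusted p = 0.19).

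**Figure D4:**
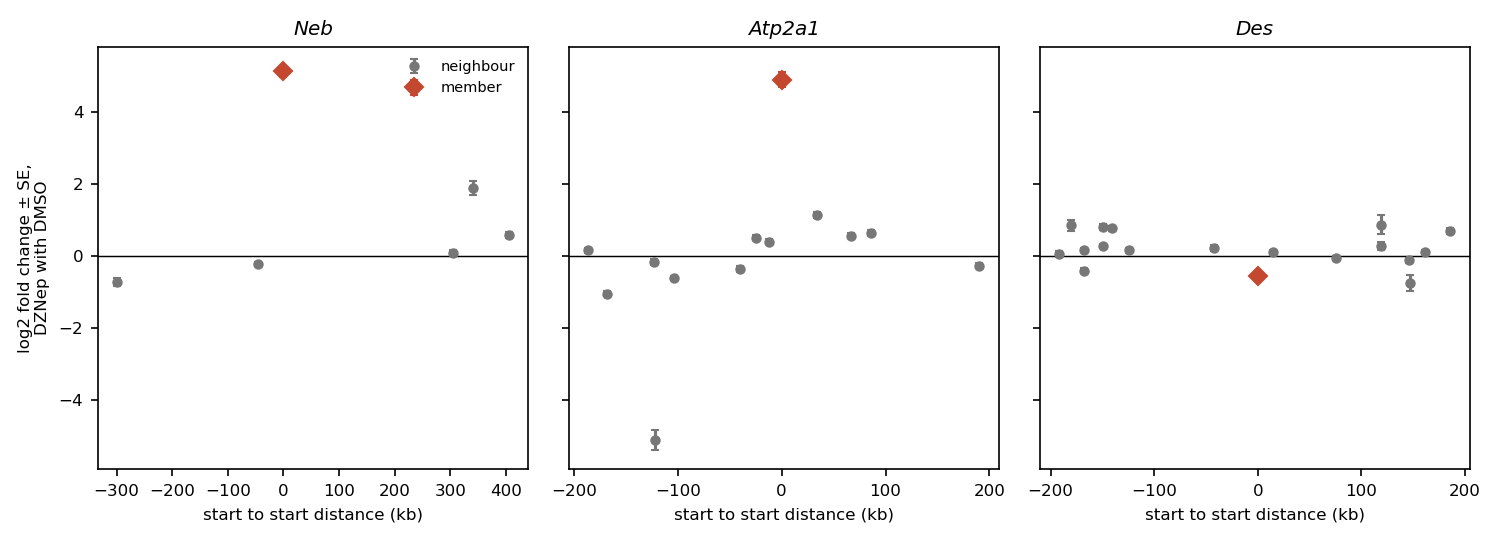
Log2 fold change ± SE of DZNep with DMSO (vertical axis) for Neb, Atp2a1 and Des (red diamonds) and tested genes near each (grey points). The horizontal axis is the distance in kb between gene starts, positive in the direction in which the member is transcribed. The window of 200 kb was taken between gene bodies, so distances between starts can be longer. The neighbours lie between -5.11 (Apobr) and 1.89 (Tnfaip6), below Neb (5.12) and Atp2a1 (4.89).

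The genes whose levels tracked Neb most closely over the 15 libraries were Tg (Pearson r = 0.993 of log2 CPM), Tmppe (0.990), Sh3pxd2a (0.990), Frmd4b (0.989) and Hs1bp3 (0.989). For Atp2a1 they were Mtf1 (0.985), Sh3pxd2a (0.982), Ocel1 (0.982), Zfat (0.981) and Nid1 (0.979). These values describe a step shared by the 3 DZNep libraries and carry no test. Tg, which encodes thyroglobulin, went from 41.9 to 277 CPM between DMSO and DZNep, and Frmd4b from 0.503 to 7.42 CPM. None of the 9 genes named here belongs to the muscle lists.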

How the data were processed

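Whole-number counts of reads per gene, with no normalization, were deposited by the authors for 15 libraries. The submitters' processing notes name STAR, featureCounts and GRCm38. Their versions, the annotation and the use of strand were not given in the sources used here. Identifiers were named with GENCODE M21: 45229 of 46078 matched, and the other 849 held 0.0588% of counts.

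All libraries entered 1 quasi-likelihood fit of edgeR 4.0.16 (R 4.3.3, limma 3.58.1) with TMM scaling, a term per group, filterByExpr and robust estimation, tested on simulated data. Benjamini-Hochberg adjustment ran over 15152 genes, with calls at an adjusted p under 0.05. Alternatives were DESeq2 1.42.0, library totals, no filter, fewer groups, a replicate block, each replicate left out, and the longest transcript as length.

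The members and lists were chosen with earlier results of these data known. Named genes are the members, Ezh2 and, per muscle list, the 3 called genes with the smallest p upward and the 2 downward whose DZNep libraries lie beyond all DMSO libraries, with markers at 1 CPM or at 0, neighbours within 200 kb and the 5 genes most like Neb or Atp2a1. Some genes that the rule names are not reported here. Neighbours, overlapping genes, undetected list genes and Actn3 were named after their values were seen. No pair of replicates agreed within sampling noise (chi-square per degree of freedom 5.96 to 38.8), so none were merged.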

Additional observations from a re-analysis of the deposited data

Results flagged for a closer look

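For Des, the difference between siEzh2 and scr was unlike the difference between GSK126 and DMSO. The siEzh2 effect minus the GSK126 effect, each against its own control, was -1.54 on the log2 scale (edgeR interaction contrast, adjusted p = 8.5e-07). All 3 siEzh2 libraries lay below all 3 scr libraries. The controls differed by 1.14 in the same gene, and siEzh2 differed from DMSO by -0.08 (edgeR, adjusted p = 0.68). An effect of the knockdown and an effect of the scrambled control on Des cannot be told apart here.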

How the results depend on the processing

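Of 84 alternative values for counts of calls, 81 stayed within 1.5 times the reported count. The count of members called with GSK126 went from 0 to 1 without the low-count filter and, over the replicates left out in turn, lay between 0 and 1, with Des called without DMSO replicate 1. The count with siEzh2 went from 2 to 1 with DMSO as its control, an alternative added after the data were seen, because Des was then not called. Other muscle genes higher with DZNep numbered 36 to 46, and those lower 42 to 47. Signs turned only for values that were never called: Atp2a1 in scr with DMSO became -0.015 without scr replicate 1 (range -0.015 to 0.51 over the replicates left out), Ttn with siEzh2 became -0.0512 with DMSO as control, and the siEzh2 minus GSK126 effect on Ttn became 0.09 without DMSO replicate 3, 0.31 without scr replicate 1 and 0.02 without siEzh2 replicate 1 (range -0.55 to 0.31). The cause was not tested.

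Over all genes, GSK126 with DMSO called 1923, and 1131 where only those 2 groups were fitted. Without 1 library the count lay between 1183 and 2490 (2490 without DMSO replicate 1, 1237 without DMSO replicate 3, and 1229, 1183 and 1203 without GSK126 replicates 1, 2 and 3). On library totals alone, scr with DMSO called 2240 of 3829 higher, against 1854 of 3920. Same-numbered libraries of DMSO and GSK126 deviated together with r from -0.00 to 0.09, and those of scr and siEzh2 from -0.18 to 0.07, so the numbers do not pair them. With a replicate block, members called were 0 (GSK126), 2 (siEzh2), 1 (scr with DMSO) and 1 (the difference of effects), and other muscle genes 43 higher and 44 lower. Depth limits Acta1, Acta2, Tagln, Cnn1 and Myl9, where 1 count was worth 0.0154 to 0.0306 CPM.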
